A study of Mus musculus with 2 samples.

Results

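*Pf4* (ENSMUSG00000029373) encodes platelet factor 4, the chemokine CXCL4. It was followed as 1 gene of 31053 listed, chosen by its symbol, in leukocytes of mouse melanomas that lacked *Ptgs*, the cyclooxygenase genes that start prostaglandin synthesis. Its lower level in the NK cell-depleted library was known when the gene was chosen, so its levels in both libraries are a description and no test was made of them. Live CD45+ cells, that is, cells with the common leukocyte surface protein, were sorted on day 4 after injection of *Braf*-mutant melanoma cells into C57BL/6 mice aged 8 weeks, and single-cell RNA-sequencing was done on 1 library per group. Hosts of the control library received neither of the depleting antibodies named next. The study's methods list control IgG among the antibodies of depletion experiments, without saying which hosts received it. Hosts of the NK cell-depleted library were given 200 µg of anti-NK1.1 and 30 µg of anti-asialo GM1 on days 0 and 2, antibodies that deplete natural killer (NK) cells and can also bind other leukocytes that carry these molecules. Each library came from pooled tumors, and parental melanoma cells were added to both sorted samples. The titles and the series design name *Ptgs*-deficient tumor cells in both groups, while the genotype field reads wild type for both, a conflict that does not separate the groups. With 1 library per group, no difference below has a replicate check, and every interval is a 95% interval that covers counting error only.

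Platelet factor 4 is a chemokine of the CXC family, best known as a product of megakaryocytes that platelets store in their granules and release on activation. It binds heparin and other glycosaminoglycans tightly and is weak as a chemoattractant compared with its relatives. In mice the gene is also active in some macrophages, the phagocytes that either live in a tissue from early on or arise from blood monocytes. Its nearest relative in the genome, *Ppbp*, encodes pro-platelet basic protein, the precursor of CXCL7, and is likewise known as a platelet gene.

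In GENCODE vM21 (genome build mm10), *Pf4* lies on chromosome 5 at chr5:90772435-90773383 on the plus strand, 949 bases with 3 exons in its main transcript, and 0 other annotated genes overlap it. *Ppbp* (ENSMUSG00000029372, chr5:90768518-90770063, plus strand) ends 2.37 kb before the *Pf4* start, and *Cxcl5* (chr5:90759360-90761624) and *Cxcl3* (chr5:90786103-90789600) lie 10.8 kb before it and 12.7 kb after its end. The 250 bases before the start sites of *Pf4* and *Ppbp* are shown because *Ppbp*, though rare, was found more often in cells with high *Pf4* below. They are from RefSeq (GRCm38.p6), at chr5:90772185-90772434 and chr5:90768268-90768517, both on the plus strand, and are written 5′ to 3′. Capitals mark matches on either strand to 4 motifs, namely GATAA of the GATA site, GGAAG of the ETS site, TGCTGA from the MAF site and TATAAA of the TATA box, of which none overlaps another here.
Pf4: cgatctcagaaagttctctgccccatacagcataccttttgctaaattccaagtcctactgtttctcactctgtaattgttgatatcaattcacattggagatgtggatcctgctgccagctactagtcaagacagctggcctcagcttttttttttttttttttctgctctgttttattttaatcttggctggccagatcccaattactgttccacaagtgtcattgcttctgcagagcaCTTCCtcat
Ppbp: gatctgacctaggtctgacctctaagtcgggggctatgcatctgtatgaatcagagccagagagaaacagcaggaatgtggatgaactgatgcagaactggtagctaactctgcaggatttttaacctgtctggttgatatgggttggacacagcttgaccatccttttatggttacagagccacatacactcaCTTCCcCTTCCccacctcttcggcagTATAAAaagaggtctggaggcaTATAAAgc
The *Pf4* window held GGAAG once, on the minus strand, at bases 9 to 5 before the start. That of *Ppbp* held it at 56 to 52 and 50 to 46 bases before the start, and TATAAA at 30 to 25 and 8 to 3. Of 32851 RefSeq promoters of this length, 64.1% held GGAAG, 12.4% TATAAA, 22.6% GATAA and 16.1% TGCTGA, so the match in *Pf4* is a common one.

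After the cell filter, 5292 control and 4506 NK cell-depleted cells remained, with 24810009 and 23245982 unique molecular identifiers (UMIs, counts of distinct transcript molecules) and medians of 4170 and 4893 UMIs per cell. Cells were grouped by a clustering that did not use *Pf4*, and clusters were called "-like" from marker genes. These names were rebuilt here, which can by itself make cell numbers differ from those of the study. Of the 18 clusters, 9 were monocyte/macrophage-like, with 3548 control and 3201 NK cell-depleted cells. Of the naming genes, *Csf1r*, the receptor for macrophage colony-stimulating factor, had a UMI in 39.8% to 95.1% of cells across these clusters and libraries. *Lyz2*, encoding lysozyme, had a UMI in 70.3% to 100%. Others were uneven, such as *C1qa*, found in 4.13% of control and 3.95% of NK cell-depleted cells of the cluster led by *Ace*. *Ms4a7* was found in 7.14% and 1.16% of cells of the cluster led by *Retnla*, *Il6* and *Cd226*. NK-like cells numbered 573 in the control library and 20 in the NK cell-depleted one.

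*Pf4* transcripts lay almost wholly in monocyte/macrophage-like cells. These held 39664 of 39785 *Pf4* UMIs in the control library, 99.7% (99.6 to 99.7), and 12709 of 12724 in the NK cell-depleted library, 99.9% (99.8 to 99.9). All other cells had 121 UMIs in 1744 control cells, or 25.2 CPM (*Pf4* UMIs per 1000000 UMIs of the cells named, with an interval of 20.9 to 30.2), and 15 UMIs in 1305 NK cell-depleted cells, or 3.55 CPM (1.99 to 5.85). Lymphocyte-like cells, which should lack the gene, gave the level that free RNA in droplets can produce. In the control library 40 of 884 of them (4.52%) had a *Pf4* UMI, at 26.7 CPM, with a median depth of 2067.5 UMIs against 5137 in the monocyte/macrophage-like cells. This level was 1.35% (1.01 to 1.75) of that in monocyte/macrophage-like cells. For 5 other macrophage genes that percentage lay close by, at 1.02% for *C1qa*, 1.20% for *C1qb*, 1.08% for *C1qc*, 1.22% for *Apoe* and 1.17% for *Lyz2*. It was 1.47% for *Ms4a7*, but 3.70% for *Arg1* and 16.0% for *Spp1*, so not every macrophage gene shared this ratio. In the NK cell-depleted library 0 of 260 lymphocyte-like cells had a *Pf4* UMI, which allows a share of up to 1.15% and a level of up to 4.75 CPM. The UMIs of *Pf4* in lymphocyte-like cells were therefore read as background. Neutrophil-like cells had 61.6 CPM (41.9 to 87.4) in 433 control cells and 7.61 CPM (2.47 to 17.8) in 500 NK cell-depleted cells. Their control interval lay above that of lymphocyte-like control cells (20.1 to 34.7), and whether this level is background was not tested.

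Platelet markers did not accompany these transcripts, apart from *Ppbp*. Of 14 platelet or megakaryocyte genes, *Gp9* and *Tubb1*, which encode a platelet glycoprotein and a platelet tubulin, had 0 UMIs in all filtered cells of both libraries. *Gp1ba*, *Gp1bb*, *Gp5* and *Gp6*, which encode platelet surface receptors, had at most 2 UMIs in either library. *Itga2b*, the platelet integrin chain, had 12 and 2 UMIs in monocyte/macrophage-like cells, *Treml1* 11 and 10, *Clec1b* 20 and 13, and *Nrgn* 8 and 0. *Vwf*, encoding von Willebrand factor, had 5.85 and 5.73 CPM, and *Itgb3*, which is not specific to platelets, 1.95 and 2.42 CPM. Summed over this list, levels were 8.36 to 23.5 CPM in control cells with fewer than 10 *Pf4* UMIs of 2000 and 86.4 CPM in cells with 10 or more, of which *Ppbp* made up 76.6 CPM.

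Within monocyte/macrophage-like cells, *Pf4* reached 1982 CPM (1962 to 2001) in the control library and 668 CPM (657 to 680) with NK cell depletion. The control level was 2.97-fold higher (2.91 to 3.03), a log2 ratio of 1.57 (1.54 to 1.60). Among 11897 genes with at least 20 UMIs, 2.89% were at least 2-fold higher in the control library, and the ratio of *Pf4* was the 92nd highest. The gene was chosen with this contrast known, so nothing is read from its place in it. At least 1 *Pf4* UMI was found in 1980 of 3548 control cells (55.8%, 54.2 to 57.4) and 1163 of 3201 NK cell-depleted cells (36.3%, 34.7 to 38.03). Positive cells held 20.03 UMIs on average in the control library, with a median of 9 and a highest cell of 257. In the NK cell-depleted library they held 10.9, with a median of 5 and a highest cell of 153. Up to 153 UMIs the values per cell overlapped between the libraries, and higher values were found in control cells only.

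To compare cells at 1 depth, each cell was thinned to 2000 UMIs, and shallower cells were left out, which kept 3234 control and 2960 NK cell-depleted cells. Then 48.7% (47.0 to 50.4) and 28.4% (26.8 to 30.1) of cells were positive, a ratio of 1.71. Positive cells held 8.37 and 4.32 UMIs on average, a ratio of 1.94. So the control library had both a larger share of positive cells and, on average, more transcripts per positive cell. The spread over cells was wide: the variance of the thinned count was 15.1 times its mean in the control library and 9.12 times in the NK cell-depleted library. Cells with 0 UMIs made up 51.3% and 71.6%, cells with 1 UMI 9.25% and 9.16%, and cells with 2 to 4 UMIs 13.48% and 10.6%. At the upper end, 11.8% and 6.08% of cells had 5 to 9 UMIs and 14.1% and 2.60% had 10 or more.

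**Figure D1:**
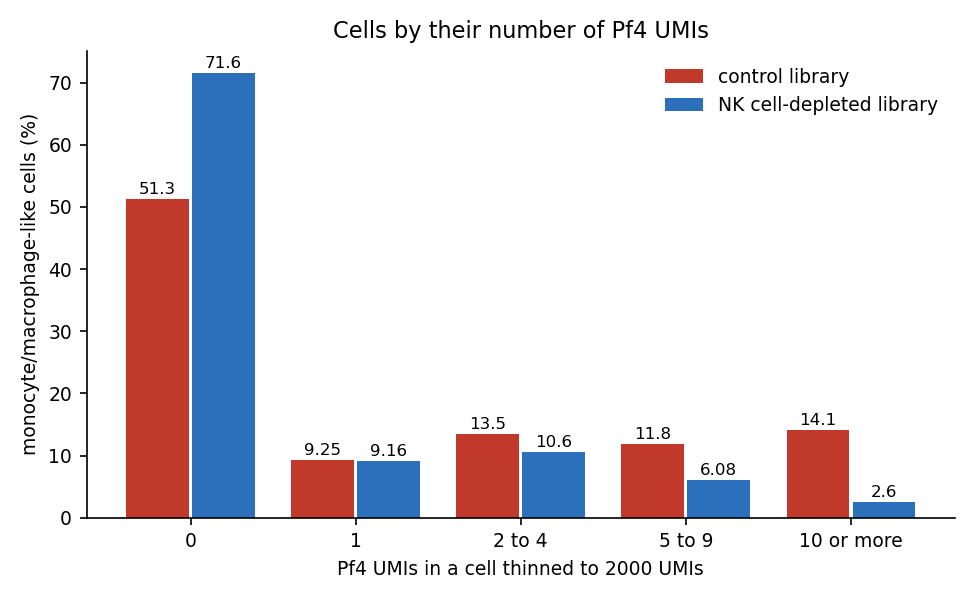
Share of monocyte/macrophage-like cells, in percent, by the number of *Pf4* UMIs in a cell thinned to 2000 UMIs, for the control (3234 cells) and NK cell-depleted (2960 cells) libraries. The bars for 1 UMI are nearly equal, at 9.25% and 9.16%, whereas those for 10 or more UMIs are 14.1% and 2.60%.

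A small part of the cells carried most of the transcripts in both libraries. The 1% of monocyte/macrophage-like cells with most *Pf4* held 13.6% of its UMIs in the control library and 19.3% in the NK cell-depleted one. The highest 10% held 60.2% and 73.2%, and the highest 20% held 82.3% and 92.4%. Put the other way, 255 control cells (7.19%) and 151 NK cell-depleted cells (4.72%) sufficed for 50% of all *Pf4* UMIs. Cells with at least 50 UMIs, not thinned, numbered 208 and 38, and those with at least 100 numbered 51 and 5.

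The level of *Pf4* differed widely between macrophage states, in an order that was the same in both libraries but for 2 pairs of neighbors. It was highest in the cluster led by *Ms4a7*, *Itga9* and *Olfml3*, where it ranked first by fold over the other monocyte/macrophage-like cells although it had not been used to form the cluster. *Ms4a7* encodes a membrane protein of tissue macrophages and *Itga9* an integrin chain. *Pf4* reached 5253 CPM (5188 to 5319) there in 662 control cells and 2844 CPM (2776 to 2914) in 293 NK cell-depleted cells. This cluster made up 18.7% and 9.15% of monocyte/macrophage-like cells and held 62.3% and 52.1% of their *Pf4* UMIs. Next came the cluster led by *Gpnmb*, *Mmp13* and *Rhov*, a state with the lysosomal glycoprotein GPNMB and a collagenase, at 3108 CPM (3039 to 3179) in 671 control cells and 1198 CPM (1142 to 1256) in 367 NK cell-depleted cells. Its cells had the lowest mitochondrial share of these clusters, a median of 0.792%, whose part in the *Pf4* level was not tested. In the cluster led by *Ccl8*, *Lyve1* and *Gas6*, genes known from macrophages that live along vessels, the levels were 1874 CPM (1818 to 1931) and 835 CPM (808 to 864). It held 10.7% of *Pf4* UMIs in the control but 26.7% in the NK cell-depleted library, where it was larger, at 16.6% against 9.64% of the cells. The monocyte gene *Ly6c2* had a UMI in 47.4% of its control cells and 53.9% of its NK cell-depleted cells. *Lyve1* itself was rare, with a UMI in 1.55% and 2.87% of all monocyte/macrophage-like cells.

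Intermediate levels were found in 3 further clusters. The cluster led by *Retnla*, *Lyz1* and *Gltp* had 1388 CPM (1294 to 1488) and 305 CPM (257 to 359), but its cells were shallow, with medians of 1574.5 and 1626 UMIs. The cluster led by *Hes1*, a Notch target gene, *Spint1* and *Havcr2* had 633 CPM (600 to 668) and 363 CPM (328 to 400). The cluster led by *Ccl17*, *Dcstamp* and *Klrb1b* had 178 CPM (165 to 191) and 111 CPM (96.0 to 127). The *Retnla* *Lyz1* cluster stood above the *Hes1* cluster in the control and under it in the NK cell-depleted library.

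The 3 remaining clusters were low, of which not all were monocytes. In the cluster led by *Ly6c2*, *Gm9733* and *Ms4a4c*, *Ly6c2* being the marker of classical monocytes, *Pf4* had 69.0 CPM (57.9 to 81.6) in 326 control cells and 35.7 CPM (30.3 to 41.7) in 722 NK cell-depleted cells. Macrophage genes were also found in this *Ly6c2* cluster, *Mrc1* in 80.7% and 75.8% and *C1qa* in 31.3% and 30.7% of cells, so it may not be of monocytes alone. The cluster led by *Retnla*, *Il6* and *Cd226*, in which the macrophage gene *Mrc1* had a UMI in 99.0% and 98.3% of cells and *Ly6c2* in 9.18% and 6.36%, had 63.3 CPM (48.5 to 81.4) and 44.1 CPM (34.3 to 55.7), so these neighbors changed places between the libraries with overlapping counting intervals. In the cluster led by *Ace*, a gene known from nonclassical monocytes, there were 16 and 5 *Pf4* UMIs, or 17.1 and 2.82 CPM. That is no more than the 26.7 CPM in lymphocyte-like control cells and the 4.75 CPM that 0 counts allow in the other library, and it was read as background.

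**Figure D2:**
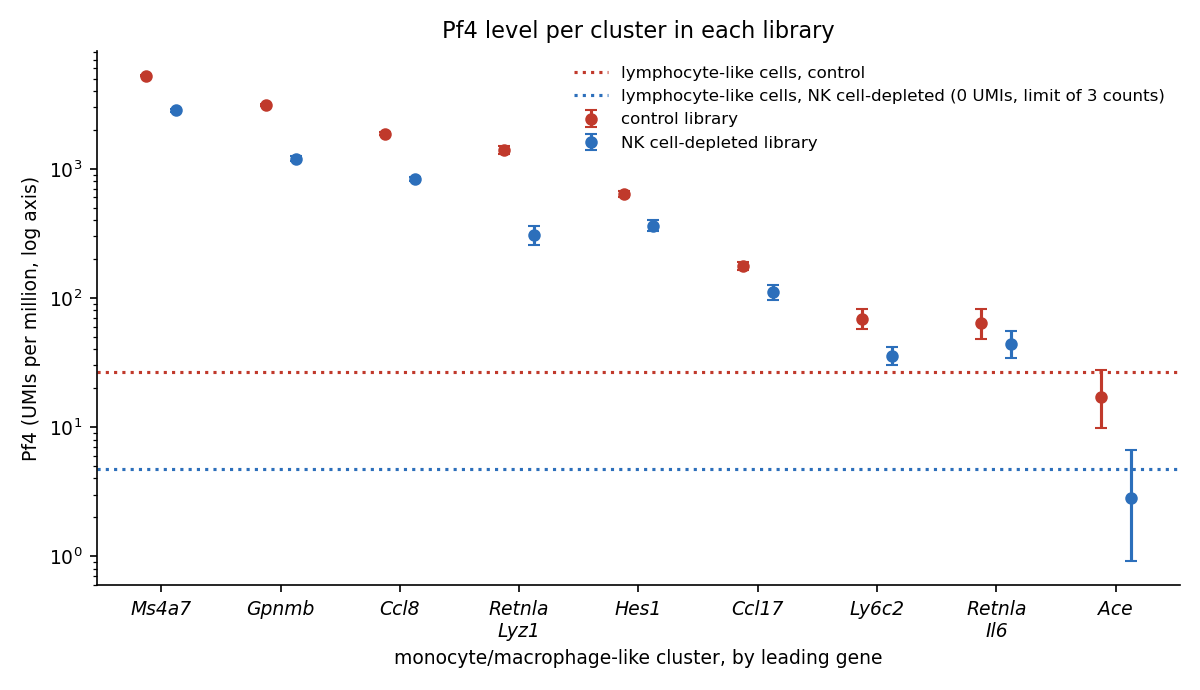
*Pf4* level in CPM (log axis) in the 9 monocyte/macrophage-like clusters, named by leading genes, in the control and NK cell-depleted libraries. Bars are 95% Poisson intervals (counting error only), and dotted lines give the lymphocyte-like level, 26.7 CPM in the control library and the 4.75 CPM that a count of 0 allows in the other. Levels run from 5253 and 2844 CPM in the *Ms4a7* cluster to 17.1 and 2.82 CPM in the *Ace* cluster, and each control point lies above its partner.

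All 9 clusters had more *Pf4* in the control than in the NK cell-depleted library, with log2 ratios of 0.53 to 2.51, although the *Ace* cluster was at background in both. The *Retnla* *Il6* cluster, the lowest of these at 0.53 (0.0041 to 1.04), changed sign when the lymphocyte level was subtracted, to -0.26. The ratio was 0.88 (0.85 to 0.92) in the *Ms4a7* cluster, 1.37 (1.30 to 1.45) in the *Gpnmb* cluster and 1.17 (1.10 to 1.23) in the *Ccl8* cluster. It was 2.18 (1.93 to 2.45) in the shallow *Retnla* *Lyz1* cluster, 0.80 (0.64 to 0.97) in the *Hes1* cluster, 0.68 (0.46 to 0.91) in the *Ccl17* cluster and 0.95 (0.61 to 1.29) in the *Ly6c2* cluster. With the lymphocyte level subtracted, the *Ccl17* cluster had 0.45 and the *Ly6c2* cluster 0.25. A 2-fold difference was reached in 4 clusters, the *Gpnmb*, *Ccl8*, *Retnla* *Lyz1* and *Ace* clusters, in which 3.69%, 2.09%, 2.38% and 1.48% of the genes with at least 20 UMIs were that much higher in the control library. In the *Ly6c2*, *Ms4a7*, *Hes1*, *Ccl17* and *Retnla* *Il6* clusters, where *Pf4* fell short of it, these percentages were 1.95%, 1.87%, 3.08%, 2.18% and 1.67%. Which clusters reached it depended on the processing: the *Ms4a7* cluster had 1.07 without the 1% of cells with most *Pf4*, and the *Ly6c2*, *Ccl17* and *Retnla* *Il6* clusters had 1.13, 1.07 and 1.22 without the highest doublet scores. Leaving out that 1% selects cells by *Pf4* itself.

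Share of positive cells and level per positive cell did not move alike in every state. In the *Ms4a7* cluster nearly every thinned cell was positive in both libraries, 89.9% (87.3 to 92.1) and 88.7% (84.5 to 92.1), and the difference lay in the level, 11.96 against 6.63 UMIs per positive cell. In the *Gpnmb* cluster the share was 74.1% and 55.1% and the level 8.89 and 4.82 UMIs, so both differed. The *Ccl8* cluster had 76.0% and 52.3% positive cells with 4.63 and 2.80 UMIs each. It thus had about the positive share of the *Gpnmb* cluster in either library, with fewer transcripts per positive cell. In the *Hes1* cluster 33.7% and 22.3% were positive, with 3.77 and 3.08 UMIs, and in the *Retnla* *Lyz1* cluster 37.5% and 13.8% of the 112 and 87 cells deep enough, with 4.24 and 2.58 UMIs. The *Ccl17* cluster had equal shares, 11.8% and 11.7%, with 2.94 and 1.91 UMIs. In the *Ly6c2*, *Retnla* *Il6* and *Ace* clusters positive cells held 1 to 1.84 UMIs, too near to 1 to read a change from.

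**Figure D3:**
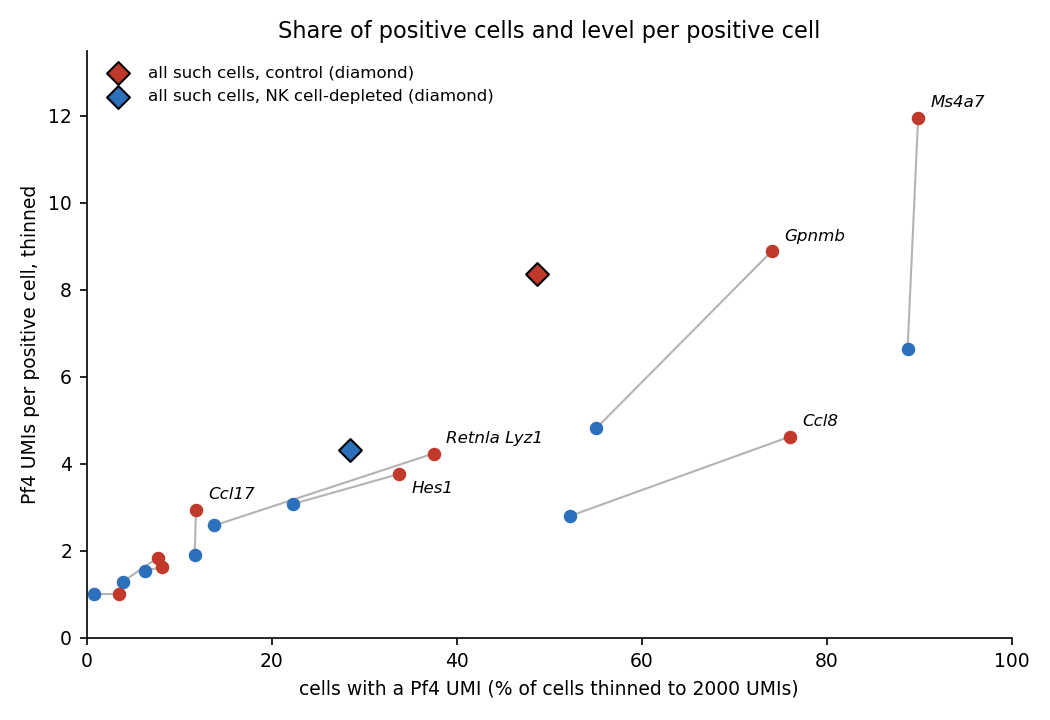
Cells with a *Pf4* UMI (percent of cells thinned to 2000 UMIs, horizontal) against mean *Pf4* UMIs per positive cell (vertical), for each of the 9 clusters in the control (red) and NK cell-depleted (blue) libraries, joined by a line and named by leading genes above 2.5 UMIs. The *Ms4a7* line is nearly vertical, from 6.63 to 11.96 UMIs at 88.7% and 89.9% positive, while the *Gpnmb* and *Ccl8* lines also run sideways, and the diamonds mark all 9 clusters together (48.7% with 8.37 UMIs, 28.4% with 4.32).

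Clusters also differed in size between the libraries. In the control library the *Gpnmb* and *Ms4a7* clusters were the largest, with 18.9% and 18.7% of monocyte/macrophage-like cells, and in the NK cell-depleted library the *Ly6c2* and *Ccl8* clusters, with 22.6% and 16.6%. The overall difference of 1313 CPM was therefore split into a part from the level within clusters, each at the mean of its share of UMIs in both libraries, and a part from those shares. The level within clusters made up 858 CPM, or 65.3% (64.6 to 66.1), and the mix of clusters 455 CPM, or 34.7% (33.9 to 35.4). With every cluster given the same weight, the log2 ratio was 1.13 in place of 1.57. Whether the antibodies, the pools of tumors or the libraries set these differences cannot be told apart with 1 library per group.

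The CXC ligand genes around *Pf4* differed among themselves in level and in their ratio between the libraries. Of 10 neighbors on chromosome 5 listed, 9 were in the files and 6 had at least 20 UMIs. Among these 6, *Ppbp* and *Cxcl9* were at least 2-fold higher in the control library, against the 2.89% of all genes, and the median log2 ratio was 0.76 beside -0.01 over all genes. *Ppbp* had 270 UMIs (13.49 CPM) and 69 UMIs (3.63 CPM), a ratio of 3.72 (2.84 to 4.92). It was found in few cells, but more often where *Pf4* was high. In control cells with at least 5 *Pf4* UMIs of 2000, 27 of 840 (3.21%, 2.13 to 4.64) had a *Ppbp* UMI, against 3 of 1659 cells (0.181%, 0.0373 to 0.528) with 0 *Pf4* UMIs. In the NK cell-depleted library these were 12 of 257 (4.67%, 2.44 to 8.01) and 1 of 2118 (0.0472%, 0.0012 to 0.263). In cells with 10 or more *Pf4* UMIs the *Ppbp* level was 76.6 CPM (59.7 to 96.8) in the control and 71.4 CPM (35.7 to 128) with NK cell depletion, intervals that overlap. At 5 to 9 *Pf4* UMIs it was 3.92 CPM (0.808 to 11.4, 3 UMIs) and 19.4 CPM (7.82 to 40.1, 7 UMIs), so the order of the libraries was the other way, again with overlapping intervals. *Cxcl2*, a ligand that attracts neutrophils, was abundant at 1446 and 1351 CPM and correlated with *Pf4* across cells only weakly, at 0.12 and 0.13. *Cxcl1* had 32.6 and 53.7 CPM and *Cxcl3* 20.9 and 12.9 CPM, while *Cxcl5* had 2 and 1 UMIs, and *Cxcl15* and *Cxcl13* 0 in both libraries.

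*Cxcl9* and *Cxcl10*, interferon-induced ligands of CXCR3 further along the chromosome, had a UMI in a smaller share of *Pf4*-high than of *Pf4*-negative cells in the control library. In the control library *Cxcl10* had a UMI in 34 of 840 cells (4.05%, 2.82 to 5.61) with at least 5 *Pf4* UMIs and in 148 of 1659 cells (8.92%, 7.59 to 10.4) with 0, and in the NK cell-depleted library in 2.33% (0.861 to 5.01) and 5.90% (4.94 to 6.99), intervals that overlap. For *Cxcl9* these were 1 of 840 cells and 21 of 1659 in the control library, and 0 of 257 and 7 of 2118 in the other, where 257 cells are too few to show a smaller share. Levels of *Cxcl10* over all monocyte/macrophage-like cells were 124 and 70.1 CPM and those of *Cxcl9* 17.8 and 4.10 CPM. In control cells with 10 or more *Pf4* UMIs, *Cxcl10* had 55.8 CPM (41.5 to 73.4), against 223 CPM (208 to 240) at 0. In the NK cell-depleted library the order was the other way, 162 CPM (105 to 240) against 85.2 CPM (76.7 to 94.5). Those 162 CPM were 25 UMIs in 1.30% of 77 cells.

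Of 14 genes for receptors and partners of platelet factor 4, 13 had at least 20 UMIs, and 0 of these differed 2-fold in either direction, with a median log2 ratio of -0.02 beside -0.01 over all 11897 genes. *Cxcr3*, a receptor of the CXCL9 to CXCL11 group that platelet factor 4 can also bind, had 21 and 10 UMIs in these cells. *Srgn*, encoding serglycin, the granule proteoglycan that holds the protein in platelets, was present at 1493 and 1286 CPM without following *Pf4* across cells, at correlations of -0.04 and -0.01. The hyaluronan receptor gene *Cd44* had 659 and 829 CPM and the syndecan gene *Sdc3* 601 and 848 CPM, with correlations from -0.07 to 0.01. Within this list *Sdc4*, another syndecan that carries heparan sulfate, followed *Pf4* most, at 0.31 and 0.33, and at 0.13 and 0.11 within clusters. *Itgam*, the integrin chain of CD11b that also binds platelet factor 4, had 647 and 656 CPM.

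Next, the genes that went with *Pf4* cell by cell were listed. Spearman correlations were computed in each library across monocyte/macrophage-like cells thinned to 2000 UMIs, for 2789 genes found in at least 10% of cells of both libraries. They are a description over cells that share a library, and they carry no p-value. The median gene had a correlation of -0.01 in each library, 24 genes were above 0.3 in both and 4 were under -0.3 in both. The 50 highest genes of each library shared 40 (80.0% of each list).

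The 12 genes with the highest correlations included 4 that encode lysosomal proteases. *Lgmn*, encoding the lysosomal protease legumain, stood first with 0.61 in the control library and 0.49 in the NK cell-depleted one. *Ctsl*, *Ctsb* and *Ctsd*, which encode the lysosomal proteases cathepsins L, B and D, had 0.58 and 0.47, 0.56 and 0.47, and 0.42 and 0.37. *Ms4a7* had 0.55 and 0.42, and *Apoe*, encoding the lipid carrier apolipoprotein E, 0.57 and 0.38. *Abca1*, a cholesterol exporter, had 0.48 and 0.39, *Maf*, a transcription factor of resident macrophages, 0.51 and 0.39, and *Dab2*, an adaptor of endocytosis, 0.39 and 0.41. *Arg1* (arginase 1) had 0.43 and 0.41, *Cd93* 0.45 and 0.31, and the complement gene *C1qa* 0.37 and 0.38. Of these 12 genes, 0 were themselves at least 2-fold higher in the control library, but 10 of them had a log2 ratio above 0, with a median of 0.17. Over all 2789 genes 35.5% were above 0, with a median of -0.09. *Lgmn* had 1879 CPM in the control and 2021 CPM with NK cell depletion, *Maf* 816 and 803 CPM, and *C1qa* 1141 and 1085 CPM. The nearest to a 2-fold difference were *Arg1*, at 1075 and 563 CPM, and *Ms4a7*, at 427 and 230 CPM.

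The 8 lowest correlations included 4 genes of antigen presentation by MHC class II and the monocyte genes *Plac8* and *Ly6c2*. *Cd52* had -0.42 and -0.38, *Plac8* -0.32 and -0.36, *Coro1a*, an actin regulator, -0.34 and -0.32, and *Ly6c2* -0.30 and -0.34. The class II genes had *Cd74* at -0.44 and -0.20, *H2-Ab1* at -0.43 and -0.18, *H2-Aa* at -0.42 and -0.18 and *H2-DMb1* at -0.37 and -0.23, so in size they were larger in the control library for each of the 4. That difference between libraries was not tested.

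Correlations shrank when the mean of each cluster was taken out, and 5 genes were then above 0.2 in both libraries. By rank, most of the 50 highest genes stayed among the 50 highest. Within clusters the highest were *Apoe* (0.36 and 0.21), *Mrc1* (0.30 and 0.22), *Lgmn* (0.30 and 0.22), *Ctsl* (0.31 and 0.21), *F13a1* (0.26 and 0.20) and *Ms4a7* (0.27 and 0.18). *Mrc1* encodes the mannose receptor and *F13a1* a chain of coagulation factor XIII, both known from resident macrophages. The 50 highest within clusters by the mean of both libraries shared 37 genes with the 50 highest across all cells, and 38 of each library's 50 were shared between the libraries.

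**Figure D4:**
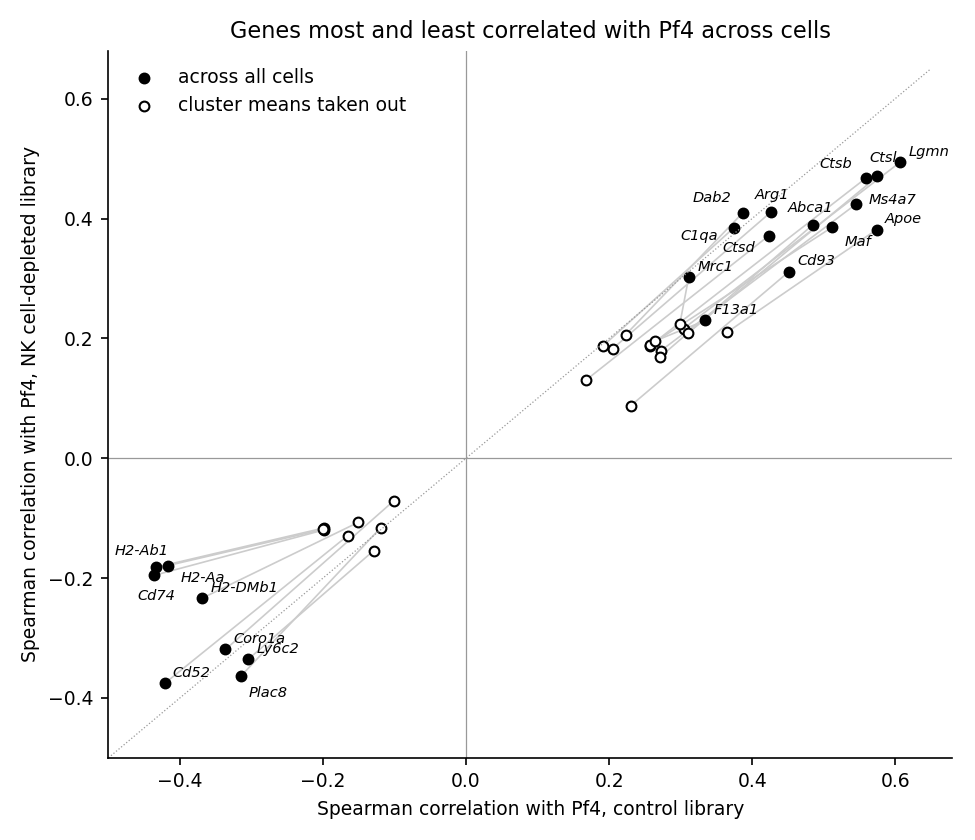
Spearman correlation with *Pf4* across monocyte/macrophage-like cells thinned to 2000 UMIs in the control (horizontal, 3234 cells) and NK cell-depleted (vertical, 2960 cells) libraries, for the 12 highest and 8 lowest genes and the 6 highest within clusters. Filled points use all cells and open points have cluster means taken out, and the dotted line marks equal values. *Lgmn* lies farthest out at 0.61 and 0.49, and the 4 class II genes lie left of the line on the negative side.

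By list, the values were as follows. Of the complement and lipid genes, all 11 with a value were above 0 in both libraries, with medians of 0.37 and 0.37, and 9 of these 11 were also above 0 in both within clusters. *Apoe* and *Lgmn* led this list in level, and *Lpl*, the lipoprotein lipase gene at 973 and 1499 CPM, was near 0 at 0.00 and 0.06. Of the 14 resident and scavenger genes, 9 had a value. All 9 were above 0 in both libraries, with medians of 0.33 and 0.25, and all 9 were so within clusters. *Stab1*, a scavenger receptor, had 0.39 and 0.37, and *Folr2*, a folate receptor, 0.33 and 0.32. *Lyve1*, *Cd163*, *Timd4*, *Gas6* and *Marco* were found in too few cells for a value. Between the libraries, the 13 of this list with at least 20 UMIs had a median log2 ratio of -0.25, beside -0.01 over all 11897 genes. Of these 13, 0 were at least 2-fold higher in the control library. At least 2-fold lower were 2 of them, *Lyve1* and *Timd4*, as were 101 of the 11897. These lists overlap in part with the markers that named clusters. Of the monocyte genes, 7 of 8 were below 0 in both libraries, with medians of -0.20 and -0.24, where *Fn1*, *Ccr2* and *Plac8* had the highest levels. *Fn1* was the exception, at -0.08 and 0.01. Of the antigen presentation genes, 8 of 8 were below 0 in both, with medians of -0.39 and -0.18.

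Hypoxia and glycolysis genes behaved differently from these. All 17 with a value were above 0 in both libraries, with medians of 0.15 and 0.20, but within clusters the medians were -0.0037 and -0.0072 and only 4 of 17 were above 0 in both. *Gapdh*, *Pgk1* and *Pkm*, glycolytic enzymes and the most abundant of them, had 0.15 and 0.20, 0.19 and 0.26, and 0.17 and 0.14 across all cells, and 0.01 and -0.01, 0.01 and 0.05, and 0.00 and -0.02 within clusters. Interferon-induced genes had weak negative values, with medians of -0.11 and -0.10 over 15 genes, 12 of them below 0 in both. *B2m*, *H2-K1* and *H2-D1*, the most abundant, had 0.11, 0.09 and 0.10 in the control library and -0.01, 0.00 and 0.00 in the other. Of 37 such genes, 3 were at least 2-fold higher in the control library over all monocyte/macrophage-like cells, where 2.89% of all genes were. Cycling genes were too rare for a correlation. *Stmn1*, *Top2a* and *Mki67* had 36.6, 23.9 and 20.5 CPM in the control and 23.5, 15.9 and 9.83 CPM with NK cell depletion.

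The same cells can be read as steps of *Pf4* count. From 0 to 10 or more *Pf4* UMIs of 2000, *Apoe* went from 1383 to 7462 CPM in the control and from 1610 to 5929 CPM in the NK cell-depleted library. *Ms4a7* went from 129 to 1113 CPM and from 111 to 779 CPM, and *Arg1* from 507 to 2521 CPM and from 249 to 3279 CPM. *Mrc1* went from 483 to 1402 CPM and from 628 to 1896 CPM. *C1qa* was highest at 5 to 9 UMIs, at 2050 and 2019 CPM, with 551 and 548 CPM at 0 UMIs. In the other direction, *H2-Aa* went from 3775 to 398 CPM and from 3253 to 312 CPM, *Ly6c2* from 810 to 58.0 CPM and from 943 to 12.99 CPM, and *Ccr2*, the receptor by which monocytes leave the blood, from 1770 to 791 CPM and from 2076 to 805 CPM. The direction from the first to the last step was the same in both libraries for each of these genes. The cells of the highest step were mainly of the *Ms4a7* cluster (61.1% and 68.8%) and the *Gpnmb* cluster (29.5% and 23.4%), and those with 0 were spread over all 9 clusters.

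**Figure D5:**
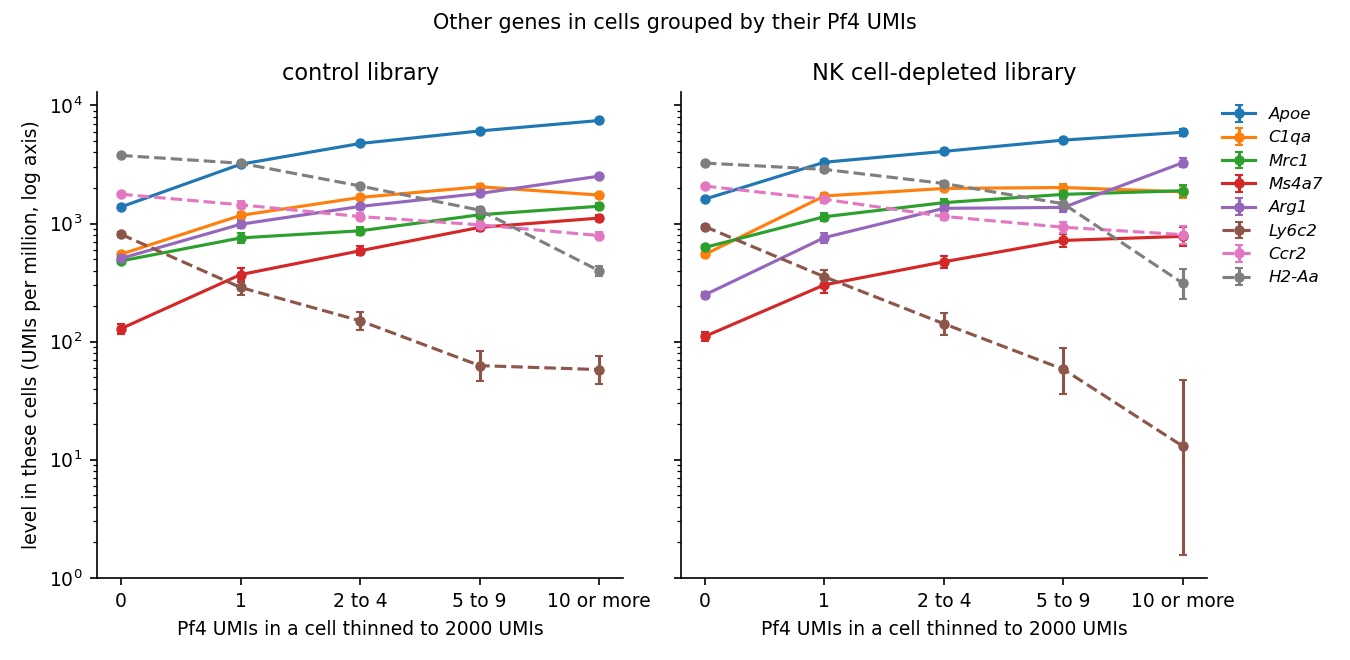
Levels of 8 other genes in CPM (log axis) in monocyte/macrophage-like cells grouped by their *Pf4* UMIs after thinning to 2000 UMIs, in the control and NK cell-depleted libraries, with 95% Poisson intervals (counting error only). Solid lines, such as *Ms4a7* from 129 to 1113 CPM in the control library, end higher than they start. Of these, *C1qa* peaks at 5 to 9 *Pf4* UMIs and is lower at 10 or more. Dashed lines go down, such as *H2-Aa* from 3775 to 398 CPM. The highest group of the NK cell-depleted library has 77 cells.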

How the data were processed

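Droplet-based 3' single-cell RNA-sequencing measured the 2 libraries. The authors deposited UMI counts of every gene in every called cell, from Cell Ranger (3.0.2 per the file headers, while the study's methods name another release) on mouse build mm10, as the submitters' processing notes give it. A deposited normalized table on a log2 scale was not used. A cell was kept if it had 500 to 15000 UMIs and 200 to 4000 genes and no more than 10% of its UMIs were mitochondrial. Of 31053 genes, 35 symbols were listed more than once, and the first entry was used. The libraries shared 7 barcodes among called cells and 5 among filtered cells, and all cells were kept.

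Log2(CPM + 1) values of the 2000 most variable genes found in at least 10 cells, without *Pf4* and the interferon-induced list, gave 15 principal components. Leiden clustering at resolution 1 on 20 nearest neighbors followed (scikit-learn 1.9.0, leidenalg 0.10.2, igraph 0.11.9, with Python 3.11.15, numpy 2.4.6 and scipy 1.17.1). Clusters were named from marker lists, with at least 3 markers among the 50 leading genes, and 3 stayed without a name. Scrublet, run in scanpy 1.11.5, called 0 and 3 cells, which means that it did not work here, so no doublets were removed, and the 5% of cells with the highest scores were left out in an alternative.

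Levels are CPM of summed counts with exact Poisson intervals, shares have Clopper-Pearson intervals, and ratios have conditional binomial intervals from the counts as they are. For log2 ratios 0.5 UMI was added to each sum, but not for their intervals. A count of 0 was read as up to 3 counts. With 1 library per group no test between groups could be made. Median depth was 4170 and 4893 UMIs per cell, and filtered cells held 39785 and 12724 *Pf4* UMIs. Genes were named by rule: the 12 highest and 8 lowest by mean Spearman correlation with *Pf4* in both libraries, the 6 highest within clusters, the 3 most abundant members of each list, the 3 leading genes of each cluster and all platelet markers. Other members given with values were chosen after their values were seen. *Pf4* and all lists were chosen with earlier results of these data known. Gene positions are from GENCODE vM21 and promoters from RefSeq (2 of 2 matched). The calculations were tested on simulated data. Alternatives concerned cell filters, depth, doublets, cluster resolution, naming cell by cell, scaling, background and weights. *Cxcl11* was not analysed here, and some genes that the naming rule picks are not reported here.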

Additional observations from a re-analysis of the deposited data

Results flagged for a closer look

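*Pf4* also had counts in called cells outside the cell filter, which no comparison above uses. In 212 control cells above the upper limits on UMIs or genes there were 2315 *Pf4* UMIs (384 CPM, 29.7% of cells positive), and in 353 such NK cell-depleted cells 807 UMIs (82.3 CPM, 17.0% positive). Under a lower limit or above the mitochondrial limit, 611 control cells had 418 UMIs (419 CPM) and 677 NK cell-depleted cells had 109 UMIs (68.4 CPM). All 4 levels lay above the lymphocyte-like level of the same library, and the control level was the higher one in both kinds of cell.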

How the results depend on the processing

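The control library had the higher *Pf4* level over all monocyte/macrophage-like cells under every alternative run. The log2 ratio of 1.57 became 1.54 with at least 1500 UMIs and at most 5% mitochondrial UMIs per cell (the stricter filter), 1.74 in thinned cells clustered anew, 1.67 without the 1% of cells with most *Pf4*, 1.61 when scaled without mitochondrial genes, ribosomal protein genes and *Pf4*, and 1.13 with equal cluster weights. The 65.3% of the difference within clusters became 61.1% without upper limits, 69.6% under the stricter filter, 52.8% in thinned cells, 63.9% without the highest doublet scores, 68.5% without the 1% of cells, 66.2% and 60.7% at resolutions 0.5 and 2, 64.5% with cells named one by one and 64.5% without the shallowest cluster. Positive shares became 57.8% and 39.3% under the stricter filter and 49.6% and 28.7% in thinned cells. UMIs per positive cell, 20.03 in the control, became 20.6 without upper limits, 21.4 under the stricter filter, 8.37 in thinned cells, 20.4 without doublet scores, 17.6 without the 1% of cells and 21.1 without the shallowest cluster. The NK cell-depleted value of 10.9 became 11.1, 11.4, 4.32, 9.08 and 11.3 under the same alternatives other than doublet scores. The share of *Pf4* UMIs in these cells was 99.9% in both libraries under the stricter filter, 99.8% in thinned control cells, 99.5% without upper limits in the NK cell-depleted library, and 98.6% and 99.6% with cells named one by one. The 40 partner genes shared by both libraries were 35 to 41 across the alternatives. Subtracting the lymphocyte-like level turned the *Retnla* *Il6* cluster to -0.26 and took the *Ly6c2* cluster to 0.25 and the *Ccl17* cluster to 0.45. It gave no value for the *Ace* cluster. In the other direction, ratios under 1 rose above it in the *Ms4a7* cluster without the 1% of cells (1.07), in the *Ly6c2*, *Ccl17* and *Retnla* *Il6* clusters without the highest doublet scores (1.13, 1.07 and 1.22), and in the *Ly6c2* cluster in thinned cells with clusters kept (1.501). Positive shares, UMIs per positive cell and shares of UMIs have no value under this subtraction or under the other scaling. The causes were not tested. Leaving out the shallowest cluster, and thinning with clusters kept, were chosen after seeing the data. No replicate could be left out with 1 library per group. No paired analysis was possible because each group has 1 library and no result comes from a test. Clusters with few *Pf4* UMIs have wide counting intervals.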
